A study of Mus musculus with 14 samples.

Results

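Broad acylation domains are the regions of at least 4000 bp among the intervals that the authors called for 2 acyl marks on lysine 9 of histone H3 in the mouse heart and merged into common regions. The members were chosen by length alone, whatever gene they were assigned to. They numbered 717 of 49314 merged regions in the table that holds both marks at 0% fat, 655 of 38150 in the table of acetylation (H3K9ac) at 10 and 60% fat, and 73 of 58137 in the table of butyrylation (H3K9Bu) at 10 and 60% fat. Almost all of them were called in each of the 4 libraries of their table (712, 654 and 69).

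The tissue was heart of male C57BL/6J mice aged 12 weeks, with no allele or transgene given in the labels. Fat supplied 0, 10 or 60% of the calories eaten, from 4 days ahead of the operation until 1 week later. The operation was either sham or transverse aortic constriction (TAC), which narrows the aorta and loads the left ventricle with pressure. Each of the 12 ChIP-seq libraries was made from a pool of 3 and stands for 1 mark, 1 surgery and 1 diet, so each group has 1 library and no difference below has a replicate check. The 6 H3K9ac groups are sham and TAC at 0, 10 and 60% fat, and the 6 H3K9Bu groups are the same surgeries and diets. Chromatin of the whole tissue was pooled, and therefore a lower signal at a gene of 1 cell type cannot be told apart between fewer cells of that type and less of the mark per cell.

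Acyl groups on this lysine neutralise its charge and are read by bromodomain and YEATS proteins at active genes. Acetylation peaks just downstream of active gene starts, and butyrylation carries a longer acyl chain, derived from butyryl-CoA, an intermediate of fatty acid oxidation. Most acetylated sites are narrow, but at genes that define a cell's identity, and at strings of neighbouring active starts, the mark can spread over many nucleosomes. Such wide domains overlap what is often called a super-enhancer or a broad promoter. In the adult heart, genes of the sarcomere, of calcium cycling, of fatty acid oxidation and of the cardiac transcription factors are known for such wide active chromatin, and the endothelium of the dense capillary bed adds its own.

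Gene starts inside the domains were of different kinds, and 5 of them are shown because the split into domains with and without a CpG island recurs below. Each line gives 250 bases before to 50 bases after a start, 5′ to 3′ on the gene's strand, from RefSeq (GRCm38.p6). Capitals mark every CG dinucleotide and every TATAAA. The Myh6 start (chr14:54966558-54966857, minus strand) and the Pln start (chr10:53337436-53337735, plus strand) have few CG and a TATAAA each. The TATAAA of Pln lies near the 5′ end of its window and that of Myh6 just past the listed start, so no role is assigned to either. The starts of Mb and Cd36, also in domains and with 2 and 3 CG, hold no TATAAA. The starts of Kdr (chr5:75978406-75978705, minus strand), Tgif1 (chr17:70851161-70851460, minus strand) and Txnip (chr3:96557707-96558006, plus strand) lie in domains with an island and hold 19, 23 and 24 CG, against 2 at Myh6 and 1 at Pln.
Myh6: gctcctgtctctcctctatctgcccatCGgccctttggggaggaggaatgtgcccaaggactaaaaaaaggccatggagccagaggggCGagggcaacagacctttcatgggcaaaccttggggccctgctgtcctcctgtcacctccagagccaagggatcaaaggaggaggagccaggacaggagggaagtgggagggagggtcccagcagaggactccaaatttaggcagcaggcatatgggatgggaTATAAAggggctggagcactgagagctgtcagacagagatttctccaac
Pln: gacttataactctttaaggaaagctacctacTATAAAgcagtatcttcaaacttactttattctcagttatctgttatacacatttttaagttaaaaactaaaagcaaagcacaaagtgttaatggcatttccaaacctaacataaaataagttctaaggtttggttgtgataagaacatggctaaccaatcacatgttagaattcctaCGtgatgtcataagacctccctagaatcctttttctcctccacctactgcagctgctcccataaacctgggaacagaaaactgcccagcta
Kdr: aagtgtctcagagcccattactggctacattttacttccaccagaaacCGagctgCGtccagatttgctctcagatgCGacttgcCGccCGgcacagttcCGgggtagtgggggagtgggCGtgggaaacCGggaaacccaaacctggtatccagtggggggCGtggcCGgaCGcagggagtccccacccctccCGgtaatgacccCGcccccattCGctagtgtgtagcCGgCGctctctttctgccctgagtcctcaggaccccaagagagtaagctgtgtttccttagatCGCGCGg
Tgif1: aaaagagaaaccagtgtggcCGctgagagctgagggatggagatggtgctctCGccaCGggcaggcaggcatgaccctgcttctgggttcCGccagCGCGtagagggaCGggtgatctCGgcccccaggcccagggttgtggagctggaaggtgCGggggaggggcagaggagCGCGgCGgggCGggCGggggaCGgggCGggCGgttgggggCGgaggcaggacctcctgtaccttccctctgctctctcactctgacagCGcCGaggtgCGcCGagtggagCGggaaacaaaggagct
Txnip: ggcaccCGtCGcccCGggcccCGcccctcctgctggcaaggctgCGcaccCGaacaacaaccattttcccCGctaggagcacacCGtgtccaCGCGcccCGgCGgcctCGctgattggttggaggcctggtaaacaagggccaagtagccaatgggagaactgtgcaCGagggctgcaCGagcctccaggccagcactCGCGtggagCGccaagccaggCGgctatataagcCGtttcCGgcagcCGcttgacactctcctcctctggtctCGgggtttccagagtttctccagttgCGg

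Domains also held microRNA hairpins, 21 in the 0% fat table and 15 in the H3K9ac table at 10 and 60% fat. Mature sequences of miR-21a, from the domain with the highest TAC to sham ratio of H3K9ac at 0% fat, and the 3p arm of miR-126a, from the longest domain at 0% fat (which also holds the hairpin of miR-126b), are shown, from RefSeq (GRCm38.p6), with the seed (bases 2 to 8) in capitals. The hairpin of miR-21a lies in the Vmp1 domain (both arms, chr11:86584120-86584141 and chr11:86584082-86584103, minus strand), and miR-126a-3p in the Egfl7 domain (chr2:26591402-26591423, plus strand).
miR-21a-5p: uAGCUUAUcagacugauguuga
miR-21a-3p: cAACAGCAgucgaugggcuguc
miR-126a-3p: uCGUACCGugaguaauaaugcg

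Signal below is the authors' tag density (mm10), either averaged over the region or at its highest position. Sequencing depth is not known. Tags estimated from that signal over all merged regions numbered 2543841 to 9163220 per library, and they cannot separate depth from enrichment. The H3K9Bu libraries at 10 and 60% fat had the fewest (2543841 to 5194261), beside 5994951 to 6624273 for H3K9Bu at 0% fat and 7936243 to 9163220 for H3K9ac. Ratios are log2 values of average signals plus a pseudocount of 1, given relative to the median over the regions called in all 4 libraries of the table. For some single domains a 95% counting interval follows in parentheses. It was taken from estimated tags without the pseudocount, so the ratio need not lie at its centre. The medians subtracted were -0.08 and 0.20 for TAC against sham at 0% fat (H3K9Bu and H3K9ac), 0.04 and 0.15 for H3K9ac at 10 and 60% fat, and -0.79 and -0.31 for H3K9Bu at 10 and 60% fat. They were -0.51 (sham) and -0.83 (TAC) for H3K9Bu against H3K9ac, and for 60 against 10% fat -0.07 (sham) and 0.05 (TAC) in H3K9ac and -0.75 (sham) and -0.25 (TAC) in H3K9Bu. Of 12 cardiomyocyte marker genes 12 had a region in each table, with a median highest signal of 45.3 at 0% fat, while 4 of 6 neuron and hepatocyte markers had one there, with a median of 14.9. Endothelial, lymphocyte and adipocyte markers with a region (10 of 10, 3 of 5 and 3 of 4) had medians of 45.3, 52.1 and 40.7. Fibroblast, macrophage, and smooth muscle and pericyte markers (8 of 8, 5 of 7 and 6 of 6) had 27.6, 24.1 and 21.5. The lymphocyte markers include Cd79a, whose domain held the start of its neighbour Rps19.

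Broad domains were few. Since they were chosen by length, they made up a larger share of the marked sequence than of the number of regions. At 0% fat the 717 domains covered 3.93 Mb, 8.98% of the length of all merged regions, and the 655 domains of H3K9ac at 10 and 60% fat covered 3.60 Mb, or 9.22%. The 73 domains of H3K9Bu at 10 and 60% fat covered 0.358 Mb, or 1.09%. In the 0% fat table the domains took 14.2% of the region tags of the sham H3K9ac library and 12.2% of the TAC H3K9ac library, against 11.1% and 10.8% for H3K9Bu in sham and TAC. In the other tables they took 12.4 to 13.2% (H3K9ac) and 1.55 to 1.72% (H3K9Bu).

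Lengths fell off steeply above the limit. The median domain was 4934 bp at 0% fat, 4959 bp for H3K9ac and 4646 bp for H3K9Bu at the other diets, and 9 in 10 were shorter than 7607, 7666 and 5914 bp. The shortest members measured 4000, 4001 and 4003 bp. Just outside the limit, 1053, 942 and 167 regions measured 3000 to under 4000 bp, and those at 0% fat had median averages of 37.1 and 34.7 (H3K9Bu, sham and TAC) and 62.6 and 62.8 (H3K9ac), beside 39.2, 35.0, 67.8 and 62.4 inside it. The few long H3K9Bu regions at 10 and 60% fat came from the libraries with the fewest estimated tags, and the part of depth in that count was not tested.

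In both tables that hold H3K9ac most domains spanned the start of a gene, as did most regions of 3000 to under 4000 bp. A RefSeq gene start lay inside 460 of 717 domains at 0% fat (64.2%, exact 95% interval 60.5 to 67.7), 444 of 655 for H3K9ac (67.8%, 64.1 to 71.4) and 36 of 73 for H3K9Bu at 10 and 60% fat (49.3%, 37.4 to 61.3). Among the regions called in all 4 libraries the shares were 49.8, 42.3 and 36.4%, and among regions of 3000 to under 4000 bp they were 65.5, 70.9 and 40.7%. CpG islands lay in 70.7, 71.5 and 57.5% of the domains, against 64.6, 53.9 and 54.4% of regions called in all 4 libraries and 74.9, 76.4 and 46.7% of regions of 3000 to under 4000 bp. At least 2 starts lay in 183 of 717, 164 of 655 and 11 of 73 domains. Among regions of 3000 to under 4000 bp the counts were 267 of 1053, 246 of 942 and 29 of 167. Several starts in 1 region were thus not particular to domains. Another 210, 173 and 30 domains lay in a gene without its start (29.3, 26.4 and 41.1%), and 24, 18 and 3 were assigned to no gene. Regions of 3000 to under 4000 bp lay in a gene without its start in 26.6, 22.4 and 39.5%. For regions called in all 4 libraries that share was above that of domains in each table. Promoters inside domains had a median content of G and C of 62.7, 63.0 and 61.7%. Those in shorter regions had 61.3, 61.3 and 61.0%, and all 32851 RefSeq promoters 52.7%. The GC box GGGCGG lay on either strand in 65.5, 62.9 and 60.8% of promoters inside domains, against 35.7% of all promoters. Promoters in shorter regions held it about as often (63.7, 64.0 and 62.2%). TATAAA was found in 6.68, 8.38 and 3.92% of promoters in domains in 6.42, 6.41 and 6.21% of those in shorter regions and in 13.6% of all promoters.

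Among the lists, the highest shares of genes in a domain were those of endothelium, clock and glucocorticoid responses, and cardiac transcription factors. Of all genes assigned to a region, 7.27% had a domain at 0% fat (1195 of 16429), 6.39% for H3K9ac (1057 of 16540) and 0.704% for H3K9Bu at 10 and 60% fat (109 of 15472). Among 25 endothelial genes 14 had one at 0% fat and 16 for H3K9ac at 10 and 60% fat, including Pecam1 and Cdh5, adhesion molecules of endothelial junctions, Kdr, the main receptor for vascular endothelial growth factor, and Erg, Fli1, Sox7, Sox18 and Klf2, transcription factors of that lineage. Cardiac transcription factors had 10 of 25 in both tables, among them Gata4, Gata6, Tbx20, Hand2, Mef2d, Srf and Meis1. Clock and glucocorticoid genes had 10 of 24 and 12 of 24, including Per1, Nr1d1 and Dbp, core parts of the circadian oscillator and its output. These lists were drawn up with earlier results of these data known, and their shares are descriptions.

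Genes of heart muscle contraction and metabolism had lower shares than those 3 lists. The sarcomere and Z-disc list had 6 of 26 genes in a domain in both tables, among them Myh6, the adult ventricular myosin heavy chain of the mouse, Ldb3, a Z-disc protein, and Cryab, a small heat shock protein. Myh7, the fetal myosin heavy chain, was assigned to the Myh6 domains, and its own start lay outside them. Calcium handling had 3 of 18 and 5 of 19 genes, including Atp2a2, the calcium pump of the sarcoplasmic reticulum, and Pln, its inhibitor. Fatty acid genes had 6 of 25 and 7 of 25, among them Cd36, a fatty acid carrier of the membrane, Lpl, which frees fatty acids from lipoproteins, and Angptl4, an inhibitor of Lpl. Ribosomal protein genes had 7 of 23 and 3 of 24, oxidative phosphorylation 2 of 23 in both, and developmental homeobox genes 0 of 19 and 0 of 21. Immediate early genes had 7 of 20 and 7 of 19, chromatin regulators 3 of 21 and 1 of 21, and cell cycle genes 2 of 19 and 1 of 19.

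Lists of other cells had few genes in a domain, with shares of 0 to 33.3%, beside 7.27 and 6.39% of all genes with a region. Several of these shares were above that of all genes, among them those of fibroblast and matrix genes (12.0 and 16.0%) and adipocyte genes (33.3 and 14.3%). Fibroblast and matrix genes had 3 of 25 and 4 of 25 in a domain, among them Col4a1 and Col4a2, chains of basement membrane collagen, and Vim, an intermediate filament of mesenchymal cells. Macrophage genes had 0 of 14 at 0% fat and 3 of 14 for H3K9ac at the other diets, all of them C1q genes, which encode the first complement component. Smooth muscle genes had 1 of 12 in both tables and adipocyte genes 2 of 6 and 1 of 7. The only lymphocyte gene in a domain, Cd79a at 0% fat, was assigned to a domain that held the start of its neighbour Rps19. In the H3K9Bu table at 10 and 60% fat the lists had 5 genes in a domain, namely Gata6, Mef2d, Lpl, Dusp1 (a phosphatase that switches off MAP kinases) and Tef (a clock output factor).

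**Figure D1:**
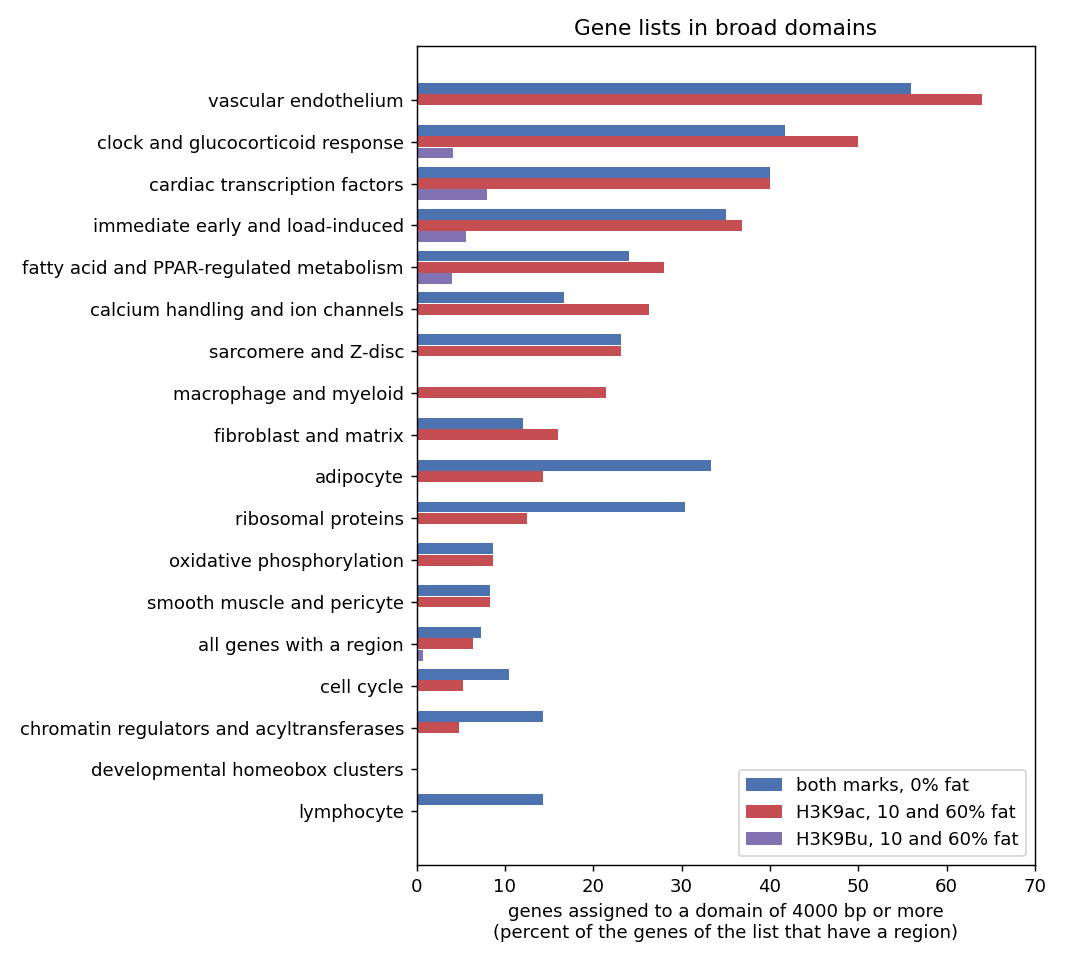
Percent of the genes of each list, among those with any region in the table, that were assigned to a domain of 4000 bp or more, with 1 bar for each of the 3 tables. Endothelial genes reached 56.0 and 64.0% in the tables with H3K9ac, beside 7.27 and 6.39% of all genes with a region, and the H3K9Bu table at 10 and 60% fat stayed at or under 8.0% for every list.

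The longest domains covered whole genes or neighbourhoods. In H3K9ac at 10 and 60% fat the longest, 17832 bp at chr14:54957150-54974982, ran from Myh6 towards Myh7 and held the start of the antisense RNA Mhrt as well as that of Myh6. At 0% fat the same locus was split into domains of 9043 and 5687 bp. The longest there was 15374 bp at chr2:26578731-26594105, over Egfl7, a secreted factor of endothelium that hosts miR-126a, and reaching Agpat2. Close behind came Gpr56, an adhesion receptor (15356 bp, chr8:94983824-94999180), Mef2d, a muscle transcription factor (14424 bp, chr3:88137972-88152396), Midn with Atp5d (13764 bp) and the semaphorin gene Sema7a (13754 bp). The longest H3K9Bu domain at 10 and 60% fat lay in Bcl2l1, an inhibitor of apoptosis (7876 bp, chr2:152815103-152822979), followed by domains of 7528 bp each in Zbtb16 and Cuedc1.

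Median average signal over the domains was above that over shared regions in each of the 12 libraries, by little in H3K9Bu at 0% fat. At 0% fat the median average over the 717 domains was 39.2 in sham H3K9Bu, 35.0 in TAC H3K9Bu, 67.8 in sham H3K9ac and 62.4 in TAC H3K9ac. Regions called in all 4 libraries had 36.5, 34.2, 50.7 and 58.4 in that order, so TAC H3K9ac was above sham over shared regions in general and below it over domains. In H3K9ac at 10 and 60% fat the domain medians were 62.6 (sham, 10%), 62.9 (TAC, 10%), 62.4 (sham, 60%) and 65.7 (TAC, 60%), against 40.1, 40.9, 38.0 and 42.9 for shared regions. The 73 H3K9Bu domains had 53.2 (sham, 10%), 30.7 (TAC, 10%), 34.1 (sham, 60%) and 24.8 (TAC, 60%), against 44.3, 26.1, 27.1 and 21.7. The sham 10% library was the highest of these 4 over domains and shared regions alike.

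By mean signal over the 4 libraries, Per1 led both tables that hold H3K9ac, and the domain at Eif4b and Tenc1 led H3K9Bu at 10 and 60% fat. The domain of Per1, a repressor in the circadian clock, with its neighbour Vamp2 (6220 bp at 0% fat) averaged 95.5 and 89.0 in H3K9Bu (sham and TAC) and 149.9 and 161 in H3K9ac. In H3K9ac at 10% fat it stood at 167 in sham and 157 in TAC, and at 60% fat at 147 and 153. Txnip, an inhibitor of glucose uptake and of thioredoxin, averaged 86.4 and 61.0 in H3K9Bu and 140.5 and 137 in H3K9ac at 0% fat, and 132 to 156 in H3K9ac at the other diets. The domain at Eif4b and Tenc1 had the highest H3K9Bu at 0% fat, 102 in sham and 84.4 in TAC, and at 10% fat it held 109 in sham and 51.1 in TAC. The highest domains of Nr1d1, Dbp and the immediate early genes Dusp1, Jun and Ier2 had H3K9ac of 103 (Jun) to 129.9 (Dbp) in sham hearts at 0% fat.

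The ratio of peak to average signal tells how evenly a domain is filled, with low values for plateaus. Its median over the domains at 0% fat was 2.61 in sham H3K9Bu, 2.65 in TAC H3K9Bu, 2.16 in sham H3K9ac and 2.79 in TAC H3K9ac, beside 2.55, 2.51, 2.10 and 2.56 over regions of 3000 to under 4000 bp. In H3K9ac at the other diets it was 2.71 (sham, 10%), 2.77 (TAC, 10%), 2.54 (sham, 60%) and 2.70 (TAC, 60%), and in H3K9Bu 2.22, 2.03, 2.07 and 2.00 in the same order. In every library the ratio was higher over domains than over regions of 3000 to under 4000 bp. Within its table the sham H3K9ac library at 0% fat had the lowest ratio in the domains. Domains with a CpG island were more peaked than those without, with medians of 2.25 against 1.92 in that library and 2.86 against 2.48 in TAC H3K9ac at 0% fat.

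**Figure D2:**
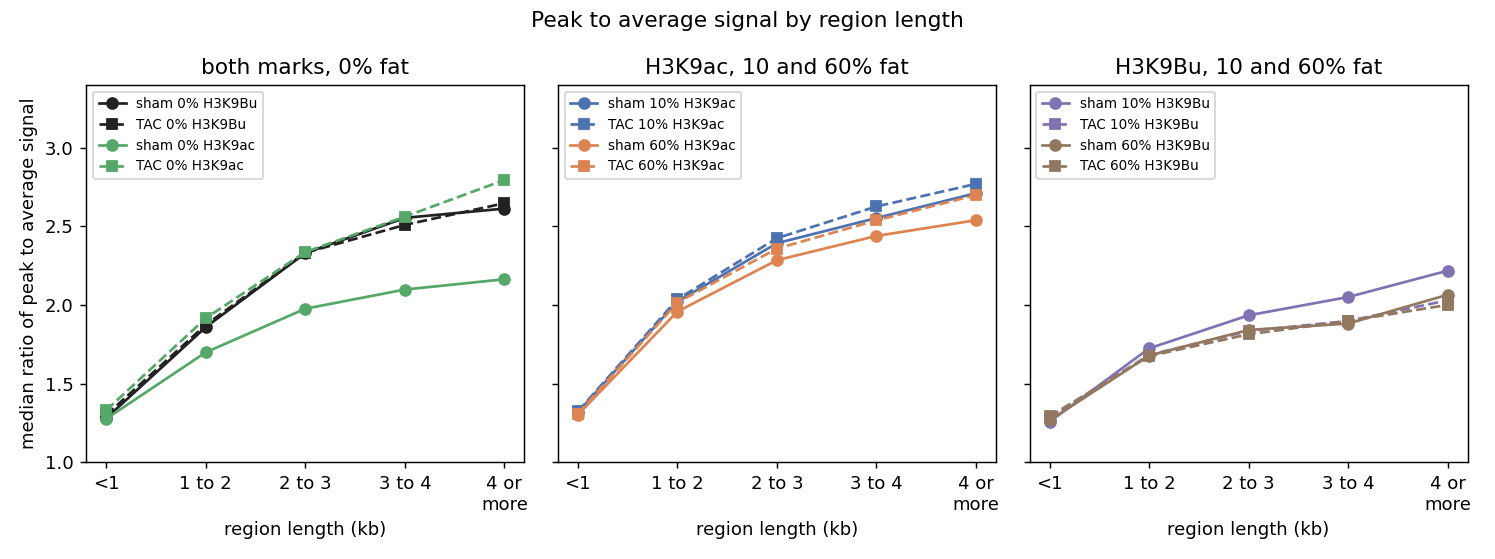
Median ratio of peak to average signal (vertical axis, starting at 1) by class of region length in kb, with 1 line per library and 1 panel per table. The line of sham H3K9ac at 0% fat reaches 2.16 in the domains and lies under the other 3 of its table, which reach 2.61 to 2.79, and the H3K9Bu lines at 10 and 60% fat end between 2.00 and 2.22.

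Single domains ranged from even plateaus to 1 sharp summit on a broad base. The flattest domain at 0% fat lay at the start of Mbnl2, a splicing regulator, with ratios of 1.47 and 1.49 in H3K9Bu (sham and TAC) and 1.64 and 1.60 in H3K9ac, and Cish, a brake on cytokine signalling, followed. Domains at Neat1, a long noncoding RNA of nuclear paraspeckles, had 1.38 to 1.68 in H3K9ac at 10 and 60% fat. The most peaked at 0% fat lay in gene clusters. The domain at Gnb2l1 and Trim41 had 5.90 and 6.07 in H3K9Bu but 3.47 and 4.53 in H3K9ac, and that of the cluster around Stub1, a ubiquitin ligase, 6.68 and 5.89 against 2.87 and 4.68. Actb, cytoplasmic actin, had 5.11 (sham, 10%), 5.20 (TAC, 10%), 5.05 (sham, 60%) and 4.09 (TAC, 60%) in H3K9ac.

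Most domains recurred in another table, and 239, 182 and 6 were a domain in their own table only. Of the 717 at 0% fat 470 (65.6%) overlapped an H3K9ac domain of the other diets, and 469 of those 655 (71.6%) overlapped one at 0% fat. Of the 73 H3K9Bu domains 63 (86.3%, or 71.2% with a reciprocal overlap of 50%) lay on a domain at 0% fat and 60 (82.2%) on an H3K9ac domain at 10 and 60% fat, but these were 63 of 717 (8.79%) and 60 of 655 (9.16%) of the larger sets. A domain in all 3 tables was seen for 55, 56 and 56 members. Every one of the 717 and 655 domains overlapped some region in the other tables. In the H3K9Bu table at 10 and 60% fat the 717 domains broke up into a median of 3 regions whose longest had a median of 1990 bp. The 63 domains at 0% fat that were also H3K9Bu domains at the other diets were longer (median 6225 against 4826 bp) and higher in sham H3K9Bu at 0% fat (median 56.3 against 37.9) than the other 654.

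After TAC at 0% fat H3K9ac over the domains was mostly lower relative to other regions. Relative to the median of shared regions, 642 of 717 domains were below 0, with a median of -0.33. At least 1.5-fold lower were 167 domains (23.3%), beside 6.79% of all regions called in all 4 libraries, and at least 1.5-fold higher was 1 domain, beside 2.91%. Regions of 3000 to under 4000 bp were lower by 1.5-fold in 14.2% with a median of -0.20, and those of 2000 to under 3000 bp in 10.8% with a median of -0.09. The trend did not go on to short regions, since 13.6% of those of 1000 to under 2000 bp (median 0.01) and 33.1% of those under 1000 bp (median -0.18), of which 4156 of 35572 were called in all 4 libraries, were 1.5-fold lower, and 27.6% of all regions were. As deposited, without centring, 72 domains were 1.5-fold lower and 3 higher, and with peak in place of average signal 53 were lower and 1 higher. H3K9Bu stood closer to 0 over the same domains, with a median of -0.05, 16 domains lower (background 1.66%) and 3 higher (background 0.781%).

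The lower H3K9ac was most pronounced where a domain had no CpG island. The 210 domains without an island had a median of -0.56 for H3K9ac, with 100 lower by 1.5-fold. The 507 with an island had -0.27, with 67 lower. Over all regions called in all 4 libraries, whatever their islands, 6.79% were 1.5-fold lower in H3K9ac and 1.66% in H3K9Bu. The island split is given for domains only, here and below, and whether it is particular to them was not tested. The same split in H3K9Bu at 0% fat gave medians of -0.21 (14 lower) and -0.02 (2 lower). The 123 domains with neither an island nor a gene start stood lowest, at -0.67 for H3K9ac with 74 lower. At 10 and 60% fat the medians of H3K9ac were -0.14 and -0.22 without an island and -0.01 and -0.05 with one. As deposited, summed H3K9ac was higher in TAC than in sham at 0% fat at most cell type markers, those of tissues other than the heart included. Unlike the ratios above, these sums are not centred. The median log2 ratio of TAC to sham over shared regions was 0.20, so a small rise can be a fall relative to other regions. The regions of 5 macrophage markers (the other 2 of 7 had none) summed to 171 in sham and 278 in TAC, those of 8 of 8 fibroblast markers to 241 and 348, those of 12 of 12 cardiomyocyte markers to 756 and 778 and those of 10 of 10 endothelial markers to 589 and 566. The sums were 136 and 169 for 3 of 5 lymphocyte markers, 142.5 and 176 for 3 of 4 adipocyte markers, 183 and 204 for 6 of 6 smooth muscle and pericyte markers, and 58.0 and 99.7 for 4 of 6 neuron and hepatocyte markers. Their part in the result was not tested.

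**Figure D3:**
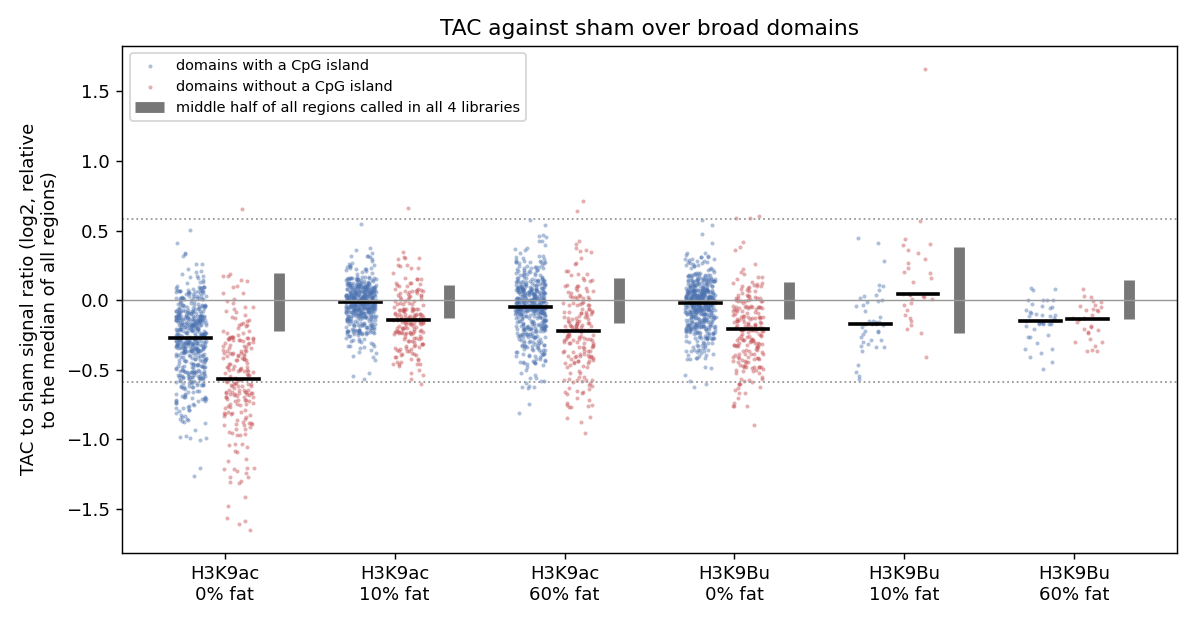
Relative log2 ratio of TAC to sham average signal for each domain in 6 comparisons, with domains split by CpG island, black lines for the medians, a grey bar for the interquartile range of all regions called in all 4 libraries, and dotted lines at 1.5-fold. In H3K9ac at 0% fat the medians lie at -0.27 with and -0.56 without an island, and in H3K9ac at 10% fat at -0.01 and -0.14.

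The 3 H3K9ac comparisons of TAC with sham, at 0, 10 and 60% fat, share no library. Among the 717 domains of the 0% fat table, each matched to the region that overlapped it most in the H3K9ac table of the other diets, 363 were below 0 at all 3 diets (50.6%) and 46 above (6.42%). Of all 15400 shared regions matched in the same way 22.1% were below and 23.9% above, and of the 1053 regions of 3000 to under 4000 bp 34.8 and 10.4%. Domains without a CpG island were below at all 3 diets in 146 of 210 cases (69.5%) and above in 5, and domains with one in 217 of 507 (42.8%) and above in 41. The counts depend on centring. With signals as deposited 218 domains were below at all 3 diets and 155 above, with peak signal 263 and 71, and with a lowess trend removed 385 and 35. These 3 alternatives were chosen after seeing the data.

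The domain with the highest ratio at 0% fat lay in Vmp1, a gene of autophagy whose last part hosts miR-21a, a microRNA studied in cardiac fibroblasts and in hearts under load. It spanned 8389 bp at chr11:86578644-86587033, held the hairpin shown above and no CpG island or RefSeq gene start. H3K9ac averaged 31.4 in sham and 57.6 in TAC at 0% fat, 36.9 and 47.2 at 10% fat, and 35.1 and 61.4 at 60% fat. The TAC library was thus above its sham library at each diet. Relative ratios were 0.65 (0.57 to 0.78), 0.31 (0.21 to 0.42) and 0.64 (0.56 to 0.76). H3K9Bu at 0% fat stood at 22.3 in sham and 32.1 in TAC, a relative ratio of 0.59 (0.48 to 0.74). At the other diets the H3K9Bu region that covers most of it was only 1894 bp long, with 32.7 and 18.1 (sham and TAC at 10%) and 19.3 and 17.2 (at 60%).

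Tgif1, a homeodomain repressor that restrains transforming growth factor beta signalling, was the second such domain. It measured 6680 bp (chr17:70847629-70854309) with 3 CpG islands. H3K9ac was 46.02 in sham and 75.6 in TAC at 0% fat, 46.6 and 60.0 at 10%, and 43.2 and 70.1 at 60%, so that TAC was higher at every diet. The relative ratios were 0.50, 0.32 and 0.54. Vim, the mesenchymal filament, averaged 58.3 and 89.5 at 0% fat, 71.6 and 82.8 at 10%, and 66.1 and 95.0 at 60%, with ratios of 0.41, 0.17 and 0.37. Schip1, Ier5l, Tagln2, Marcks and Nfkbiz were the others named among the highest at their weakest diet, a choice made after values were seen.

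Zbtb16 stood at the other end. It encodes PLZF, a zinc finger factor induced by glucocorticoids and studied in cardiac hypertrophy. A domain of 10815 bp (chr9:48727387-48738202), without a gene start or a CpG island, averaged 100.4 in sham and 53.8 in TAC H3K9ac at 0% fat, 77.2 and 51.9 at 10%, and 79.1 and 51.8 at 60%. Sham lay above TAC at each diet, with relative ratios of -1.09, -0.60 and -0.75. H3K9Bu went from 79.5 in sham to 47.6 in TAC at 0% fat (relative ratio -0.65). At 10 and 60% fat its H3K9Bu domain of 7528 bp held 65.6 and 37.9 (sham and TAC) and 46.5 and 28.7, with relative ratios of 0.01 and -0.37, beside medians over all shared regions of -0.79 and -0.31. A neighbouring Zbtb16 domain had H3K9ac ratios of -1.27, -0.59 and -0.81 over the 3 diets. These were the 2 domains of the 717 that were 1.5-fold lower at all 3 diets, among 22 of all matched regions. As deposited 0 domains passed at all 3 diets, and with peak signal 1 did.

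Other domains among the lowest at their weakest diet, likewise chosen after values were seen, were those of Capn2, Rgcc, Tns1, Zfp422 with Rassf4 (-1.41, -0.45 and -0.68) and Drap1 (-0.97, -0.45 and -0.44). Rgcc, a cell cycle regulator that responds to complement, went from 59.0 to 28.4 in H3K9ac at 0% fat, from 46.9 to 34.5 at 10% and from 49.96 to 28.2 at 60%. Its ratios were -1.23, -0.47 and -0.95, and in H3K9Bu at 0% fat it went from 25.3 to 13.6. Tns1, tensin of focal adhesions, had -0.82, -0.46 and -0.65, and Capn2, a calcium-activated protease, -1.21, -0.48 and -0.56, the last in a short region of 1351 bp outside 0% fat. The lowest H3K9ac ratio at 0% fat belonged to Col4a1. Its domain without a gene start (chr8:11267343-11272873) went from 38.5 in sham to 13.5 in TAC in H3K9ac, a ratio of -1.65 (-1.90 to -1.53), and from 39.3 to 19.4 in H3K9Bu, -0.90 (-1.10 to -0.78). At the shared start of Col4a1 and Col4a2 the domain was nearer to the rest, with 93.7 in sham and 77.0 in TAC H3K9ac (-0.48).

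**Figure D4:**
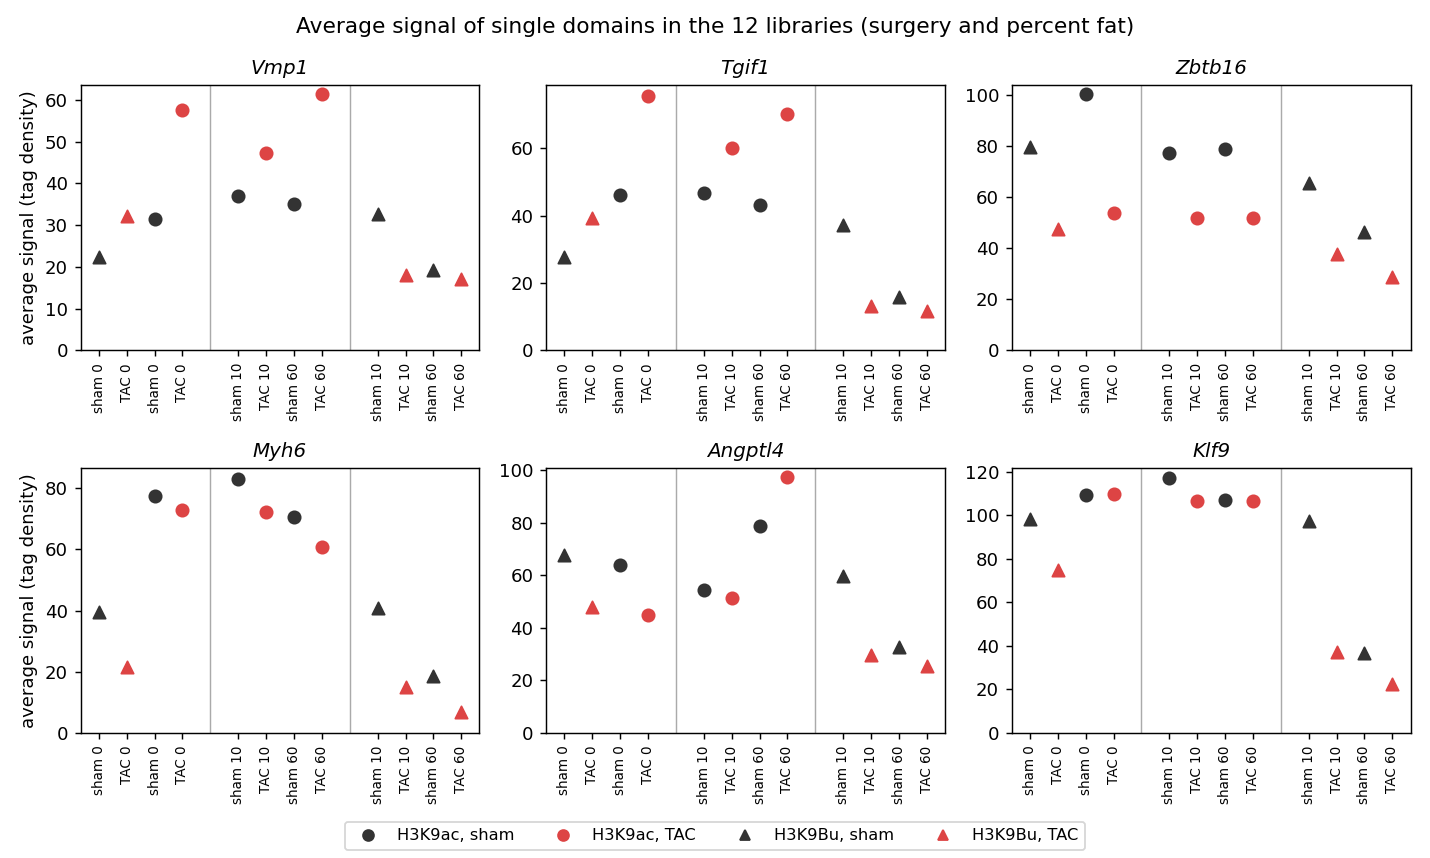
Average signal (tag density, vertical axis) of 6 domains in the 12 libraries, with circles for H3K9ac, triangles for H3K9Bu, black for sham and red for TAC, grouped by the 3 tables, whose levels are not compared. H3K9ac at Vmp1 and Tgif1 is higher in TAC at each diet (31.4 and 57.6, and 46.02 and 75.6, at 0% fat), at Zbtb16 it is lower (100.4 and 53.8), and at Angptl4 it is highest in the 60% fat libraries of its table (78.8 and 97.5).

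At contractile genes H3K9Bu was lower after TAC at 0% fat by more than H3K9ac. The Myh6 domain of 9043 bp averaged 39.4 in sham and 21.5 in TAC H3K9Bu, and 77.4 and 73.0 in H3K9ac. Relative ratios were -0.76 (-0.91 to -0.67) for H3K9Bu and -0.28 (-0.36 to -0.21) for H3K9ac. The domain beyond it, with the Mhrt start, had -0.76 and -0.57. Pln averaged 36.9 and 20.5 in H3K9Bu, and 68.5 and 65.2 in H3K9ac, with ratios of -0.74 (-0.89 to -0.64) and -0.27 (-0.35 to -0.19). Ratios of both marks were below 0 in all 6 sarcomere and Z-disc domains (medians -0.49 for H3K9Bu and -0.33 for H3K9ac) and in all 3 calcium handling domains (-0.60 and -0.36). Among all 717 domains, 452 were below 0 for H3K9Bu (median -0.05) and 642 for H3K9ac (median -0.33). Summed H3K9Bu over the 12 cardiomyocyte markers, which include Myh6 and Pln, was 557 in sham and 380.5 in TAC, beside 184 and 220.5 over the 8 fibroblast markers, and the part of cell makeup in these values was not tested. At the other diets the H3K9ac domain at Myh6 went from 82.9 to 72.1 (sham and TAC, 10%) and from 70.7 to 60.6 (60%), and Pln from 90.1 to 70.9 and from 79.1 to 58.8. No gene of either list had an H3K9Bu domain there. The longest H3K9Bu region inside the Myh6 locus, 2339 bp, held 41.0 and 15.1 (sham and TAC, 10%) and 18.5 and 6.90 (60%).

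Endothelial domains at 0% fat stood near the level of all domains. At 0% fat 15 of the 16 domains with an endothelial gene were below 0 for H3K9ac after TAC, with a median of -0.41, and 3 were 1.5-fold lower, beside 642 of 717, -0.33 and 167 for all domains. At 10 and 60% fat 7 of 18 were below 0 at each diet, with medians of 0.04 and 0.05, beside 393 and 428 of all 655 domains, with medians of -0.04 and -0.07. Egfl7 and its longest domain averaged 78.1 in sham and 63.9 in TAC H3K9ac at 0% fat (-0.49), and its H3K9ac domain at the other diets 76.9 and 85.7 (10%) and 76.5 and 91.1 (60%). Aplnr, the receptor for apelin, had the highest TAC to sham ratios among the domains of the H3K9ac table at 10 and 60% fat. Its 4410 bp domain (chr2:85135919-85140329) went from 27.7 to 45.6 at 10% fat and from 30.8 to 56.6 at 60%, ratios of 0.66 (0.53 to 0.84) and 0.71 (0.59 to 0.88). At 0% fat its region was 3793 bp long and held 28.6 in sham and 38.3 in TAC. Whether the diets differ in this was not tested, since each has 1 library per surgery.

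In H3K9ac at 10 and 60% fat few domains passed 1.5-fold after TAC. At 10% fat 1 was higher (background 0.504%) and 1 lower (background 1.25%), which were Aplnr and Zbtb16. At 60% fat 2 were higher, Aplnr and Vmp1 (background 2.14%), and 30 were lower (4.58%, background 3.59%). As deposited 7 were higher and 12 lower at 60% fat, and with peak signal 4 and 12. Arl4c, a small GTPase, came next among the higher ones, from 39.8 to 60.3 at 10% and from 39.2 to 65.5 at 60%. Among the lower ones at 60% fat, Pdk4, the kinase that shuts off pyruvate dehydrogenase, went from 93.1 to 64.4 at 10% and from 88.2 to 63.0 at 60% (-0.56 and -0.63). Trim63, the muscle ubiquitin ligase MuRF1, went from 78.2 to 54.0 and from 68.3 to 45.02 (-0.56 and -0.74). At 10% fat neither passed 1.5-fold. At 0% fat the region inside that Trim63 domain held 47.6 in sham and 50.3 in TAC H3K9ac.

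Of the fatty acid domains, 6 of 8 were below 0 in H3K9ac after TAC at 0% fat (median -0.48), 10 of 10 at 10% (-0.28) and 9 of 10 at 60% (-0.49), beside 642 of 717, 393 of 655 and 428 of 655 of all domains. The exception at 60% fat was Angptl4. Clock and glucocorticoid domains were below 0 in 12 of 13, 13 of 14 and 13 of 14, with medians of -0.20, -0.19 and -0.20. In immediate early domains the medians were -0.13, -0.01 and 0.02.

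Few H3K9ac domains, and few shared regions of any length, differed 1.5-fold between 60 and 10% fat. In sham hearts 2 domains were higher at 60% fat (0.305%, background 0.416%) and 0 lower (background 0.462%). In TAC hearts 1 was higher (0.153%, background 0.602%) and 0 lower (background 0.673%). The 0% fat diet was not part of this comparison. In sham hearts no domain passed 1.5-fold as deposited. These comparisons share libraries with those of TAC against sham at the same diets. Angptl4, induced by fatty acids through PPAR receptors, was higher in both surgeries. Its domain (4515 bp, chr17:33778466-33782981) averaged 54.4 in sham and 51.5 in TAC at 10% fat, and 78.8 and 97.5 at 60% fat. The ratios of 60 to 10% fat were 0.59 in sham and 0.86 in TAC. At 0% fat the same domain held 63.9 in sham and 44.9 in TAC H3K9ac, with a TAC to sham ratio of -0.70 (-0.83 to -0.59).

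Cd36 was the other. Its domain (4541 bp) averaged 21.0 in sham at 10% fat and 31.1 in sham at 60%, with 16.9 and 18.9 in TAC, so the gap between diets was seen in sham (0.61) and was small in TAC (0.11). Gna11, a G protein subunit, came next in sham with 0.53. Lower at 60% fat in sham were both C1q domains, with 49.6 at 10% against 35.7 at 60%, and 42.2 against 28.5 (-0.40 and -0.48). In TAC hearts they held 47.4 against 44.6, and 40.1 against 36.8. Mb, myoglobin, had 65.6 in TAC at 10% fat and 45.8 in TAC at 60% (-0.56), beside 70.8 and 65.5 in sham. Summed H3K9ac of macrophage markers was 226 and 188 in sham at 10 and 60% fat, and 225 and 235 in TAC, and its part in the C1q values was not tested.

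The balance of both marks at 0% fat differed among the domains. In sham hearts H3K9Bu was low against H3K9ac, with 93 domains at least 1.5-fold lower (background 5.50%), 21 higher (background 16.6%) and a median of -0.28. Regions of 3000 to under 4000 bp were similar, with 12.5% lower, 4.56% higher and a median of -0.26. In TAC hearts 7 domains were lower (background 0.724%) and 80 higher (background 18.4%), with a median of -0.02. There 0.57% of regions of 3000 to under 4000 bp were lower and 12.6% higher, with a median of -0.07. The balance was thus not particular to domains. As deposited, 554 and 553 domains were lower and 4 and 5 higher in sham and TAC. In TAC hearts a lowess trend gave 65 higher and 24 lower, and peak signal 61 higher and 28 lower. Domains without a CpG island held 75 of the 80 higher ones in TAC and 20 of the 21 in sham. The ratios of both marks use the same 4 libraries as those of TAC against sham at 0% fat. The change in these counts from sham to TAC is therefore not separate from the lower H3K9ac described above. Ssh2, a cofilin phosphatase, averaged 57.7 and 37.6 in H3K9Bu (sham and TAC) and 32.5 and 26.1 in H3K9ac, with ratios of H3K9Bu to H3K9ac of 1.32 in sham and 1.33 in TAC. Ano10 had 1.15 and 1.57, and Cuedc1 0.80 and 1.11. Lowest in sham were Cyhr1 (-1.36), the cluster around Mvp and Prrt2 (-1.16) and Gna11 (-0.98), and lowest in TAC were the muscle genes Lmod2 (-0.91), Myh6 (-0.89) and Pln (-0.80). Lmod2 elongates the thin filament, and its domain held 40.2 and 27.0 in H3K9Bu and 86.3 and 92.2 in H3K9ac. The domains 1.5-fold higher in H3K9Bu after TAC were those at Vmp1, described above, at Shisa5 and Trex1 (27.7 in sham and 40.2 in TAC, 0.60) and at Sbno2 (30.1 and 43.3, 0.59).

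The 73 H3K9Bu domains of the 10 and 60% fat diets were followed separately. After TAC 1 domain was 1.5-fold higher (background 16.7%) and 0 lower (background 1.43%) at 10% fat, and 0 higher (background 0.477%) and 0 lower (background 0.238%) at 60% fat. At 60% fat 63 of 73 were below 0, with a median of -0.14, beside a median of -0.12 for regions of 3000 to under 4000 bp. For 60 against 10% fat in sham hearts 7 were higher (background 21.0%) and 2 lower (background 6.40%), and in TAC hearts 0 higher (background 0.953%) and 0 lower (background 1.06%). Without centring 59 were lower at 10% fat and 14 at 60% fat after TAC, and in sham hearts 46 were lower at 60 than at 10% fat.

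The single domain higher after TAC at 10% fat lay in Hs1bp3 (4497 bp, chr12:8338406-8342903). It averaged 15.7 in sham and 29.6 in TAC at 10% fat, and 40.1 and 32.6 at 60%. Only the sham 10% library was low, where the domain was not called. Its ratios were 1.66 (1.501 to 1.902) for TAC at 10% fat and 2.04 for 60 against 10% in sham. The lowest TAC to sham ratio at 10% fat belonged to Klf9, a glucocorticoid-induced factor linked to the clock, with 97.1 in sham and 37.4 in TAC at 10% fat and 36.9 and 22.5 at 60%. Its TAC to sham ratios were -0.57 (-0.71 to -0.47) and -0.38, and that of 60 to 10% fat in sham -0.62. H3K9ac at that locus stayed between 106 and 117 in the 4 libraries of those diets. Txnip (67.2, 26.1, 26.4 and 15.2 in sham and TAC at 10%, then sham and TAC at 60%) and Lpl (52.5, 20.7, 26.0 and 14.4) were next, and Lpl had TAC to sham ratios of -0.51 and -0.49, the second being the lowest at 60% fat. Also among the highest at 60 against 10% fat in sham, Lrrc8a with Phyhd1 averaged 50.8 in sham at 10% and 54.99 in sham at 60% (0.86), and Piezo1, a mechanosensitive channel, 37.1 and 35.6 (0.69), which is slightly lower as deposited and higher relative to other regions.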

How the data were processed

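The deposited tables give a signal for each merged region and library, the average and the highest tag density, per the file headers. The submitters' processing notes name BWA, SICER and the build mm10, with no role for each. Their versions, the scaling between libraries and the use of the 2 input libraries are not given in the sources used here. The inputs were not analysed here. The merged regions of 4 libraries in each of 3 tables were used as they stand, and levels were compared only within a table.

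Domains were the regions of at least 4000 bp. Gene starts and promoters came from RefSeq tables of GRCm38.p6, the build of mm10, and of 1465 assigned symbols 1326 were found there directly and 1419 when synonyms were allowed. Genes are named as the tables assign them, so neighbours can share a domain. Ratios are log2((a + 1)/(b + 1)) minus the median over the regions called in all 4 libraries, and 1.5-fold is 0.585 on that scale. The deposited tag estimate equals the larger average times length divided by 224 in 483776 of 483776 cells, and this relation gave tags per library. Intervals (exact Clopper-Pearson, 95%) cover counting error only. Those of ratios use the estimated tags of 1 library per group, without the pseudocount, and reads carry no molecular identifiers. With 1 library per group no test between groups was made. The ratio code was tested on simulated data with known answers.

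Named domains were, per table, the 5 longest, the 5 with the highest signal, the 3 with the lowest and highest ratio of peak to average signal, the 3 highest and lowest in each comparison, up to 4 members of each of 17 gene lists, and a set of heart genes. Others were chosen after their values were seen (those extreme at all 3 diets, the starts whose sequences are shown, and list members named only by symbol). Some under this rule are not printed. The domains and lists were chosen with earlier results of these data known. Alternatives were minimum lengths of 3000 and 5000 bp, no centring, a lowess trend (fraction 0.3), peak signal, regions called in all 4 libraries and a reciprocal overlap of 50%. Tools were Python 3.11.15, pandas 2.3.3, numpy 2.4.6, scipy 1.17.1, statsmodels 0.14.6 and matplotlib 3.10.9.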

Additional observations from a re-analysis of the deposited data

How the results depend on the processing

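No paired analysis was possible because each group has 1 library and no replicate number, and the diets are conditions rather than replicates. No replicate could be left out. Limits of 3000 and 5000 bp gave 1770 and 348 domains at 0% fat, 1597 and 319 for H3K9ac at 10 and 60% fat and 240 and 28 for H3K9Bu. The share with a gene start at 0% fat was 68.1% at 5000 bp. Median ratios of peak to average signal at 3000 bp moved to 2.64 in TAC H3K9ac at 0% fat, to 2.63, 2.67, 2.49 and 2.61 in H3K9ac (sham 10, TAC 10, sham 60 and TAC 60% fat) and to 2.11 in sham 10% H3K9Bu. At 5000 bp the same 4 H3K9ac medians were 2.80, 2.90, 2.63 and 2.80. A reciprocal overlap of 50% lowered the share of H3K9Bu domains found at 0% fat to 71.2%. As deposited, domains 1.5-fold apart after TAC numbered 75 in H3K9ac at 0% fat, 19 in H3K9ac at 60%, and 60 and 14 in H3K9Bu at 10 and 60%. They numbered 558 in sham and 558 in TAC for both marks compared, 0 in sham H3K9ac, 47 in sham H3K9Bu and 7 in TAC H3K9Bu for 60 against 10% fat, and 218 were below 0 at all 3 diets. With peak signal the counts were 54, 1 and 16 in H3K9ac at 0, 10 and 60% fat, 7 and 2 in H3K9Bu at 10 and 60%, and for 60 against 10% fat 0 in sham H3K9ac and 7 in TAC H3K9Bu. For both marks compared in TAC hearts the total stayed near 87 with the lowess trend and peak signal (89 each), but lower domains numbered 24 and 28 in place of 7. The lowess trend gave 3 in H3K9Bu at 10% fat. Other values kept to within 1.5 times the count or the spread given (12 under the lowess trend, 15 with regions called in all 4 libraries, 12 and 13 at 3000 and 5000 bp, 6 with peak signal, 3 as deposited and 5 with reciprocal overlap). The cause of these shifts was not tested. Estimated tags were fewest in the H3K9Bu libraries of 10 and 60% fat, and the effect of depth on their domains was not tested.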
